A study of Mus musculus with 2 samples.

Results

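The genes described here make, carry, break down and sense prostaglandins in the newborn mouse ureter. They are *Ptgs1*, *Ptgs2*, *Ptges* and *Ptgis* (synthesis), *Slco2a1* and *Hpgd* (uptake and breakdown) and *Ptger1*, *Ptger2*, *Ptger3* and *Ptger4* (receptors), which is 10 of the 29924 gene names on the array. They were chosen by name, with their ratios on these same arrays already known, so the ratios are given as a description and carry no test. RNA from whole ureters of wildtype NMRI pups, explanted on the day of birth (P0) and cultured for 18 h, was profiled on 2 Agilent 2-colour arrays. Each array compared 1 pool of 5 or 6 ureters kept in 5 µM IWP-2 with 1 pool kept in the solvent DMSO (control). IWP-2 inhibits PORCN, the acyltransferase that WNT ligands need for secretion, and the comparison asks which ureter transcripts depend on WNT signaling. Replicate 1 used female and replicate 2 male pups, with the dye of the IWP-2 pool switched from one array to the other, so sex, dye orientation and array cannot be told apart.

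Prostaglandins are local lipid signals made from arachidonic acid. The cyclooxygenases encoded by *Ptgs1* and *Ptgs2* form an unstable intermediate, which terminal synthases turn into PGE2 or prostacyclin. PGE2 acts on nearby cells through the receptors EP1 to EP4 until it is taken up and oxidised, and in the urinary tract it is known to modulate smooth muscle tone, pacemaker activity and inflammation.

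All 10 genes had a control signal above 100 on both arrays, and 14 probes represented them, with 2 probes for *Hpgd*, *Ptger3*, *Ptges* and *Ptgis*. Values are processed signals after loess within each array, and ratios are log2 of IWP-2 over control. Where a gene had 2 probes, the brighter one stands for the gene. By the filter of the study (control signal above 100 and at least 1.5-fold in the same direction on both arrays), *Ptger2* and *Ptger3*, 2 of the 10, were lower under IWP-2, against 0.363% of the 14051 genes with such a control signal. *Hpgd* was the 1 that was higher, against 0.0783% of those genes. Nothing is read from these shares, since the genes were chosen with the ratios in view. The other 7 stayed inside the filter. The WNT feedback gene *Axin2* checked the treatment, with log2 ratios of −2.10 in replicate 1 and −1.72 in replicate 2. Its dimmer probe was close to the floor of 15 in the controls (20.2 and 17.3) and at the floor in both treated pools, so it adds little. Each array held 157716 spots outside the controls, of which 3.32% and 3.22% carried an outlier flag and 0 were saturated. The SD of the log2 ratios over the 14336 genes tested was 0.22 in replicate 1 and 0.17 in replicate 2.

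**Figure D1:**
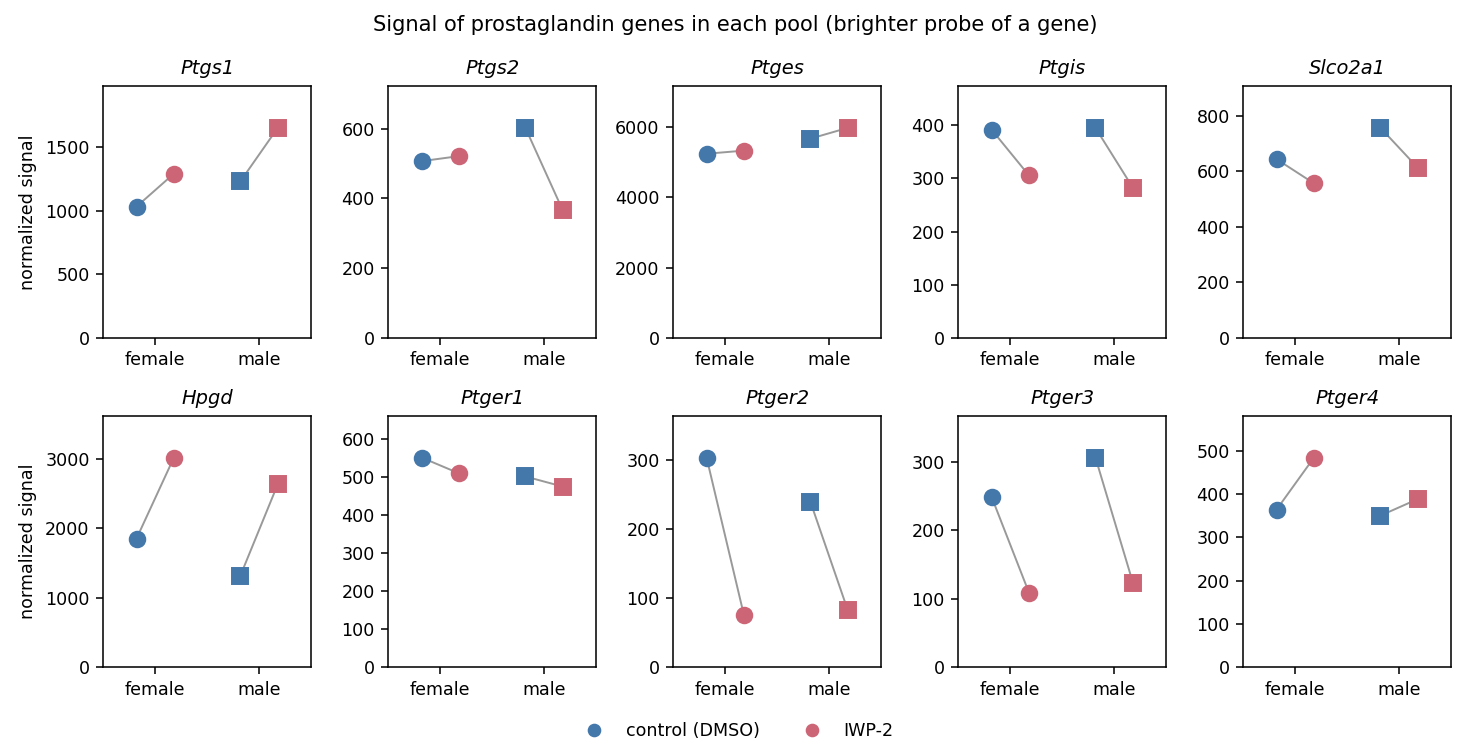
Each panel plots 1 gene, with the normalized signal (linear, starting at 0) on the y axis and the female (replicate 1, circles) and male (replicate 2, squares) arrays on the x axis. Blue points are control pools, red points are IWP-2 pools of the same array, and each point is 1 pool, so there is no error bar. *Ptger2* went from 303 to 75.4 and from 239 to 82.5, and *Hpgd* from 1855 to 3021 and from 1321 to 2636.

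Among the synthesis genes, *Ptgs1* was higher under IWP-2 on both arrays, *Ptgis* was lower on both, *Ptges* was near its control level, and *Ptgs2* differed between the arrays. *Ptgs1* encodes the constitutive cyclooxygenase COX-1. Its signal was 1032 in the female control, 1291 in the female IWP-2 pool, 1231 in the male control and 1652 in the male IWP-2 pool. Both treated pools lay above both controls. This gave log2 ratios of 0.32 and 0.42, with a mean of 0.37 ± 0.07 (SD, n = 2 arrays).

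*Ptgs2* encodes the inducible cyclooxygenase COX-2, which is induced in inflamed or stretched tissue. Its signal was 507 in the female control and 522 in the female IWP-2 pool, and 603 in the male control and 366 in the male IWP-2 pool. The female pools were alike, the male IWP-2 pool was the lowest of the 4, and the groups overlapped. The log2 ratio was 0.04 in replicate 1 and −0.72 in replicate 2, so the SD of 0.54 exceeded the size of the mean of −0.34. The 4 spots of the *Ptgs2* probe lay between 0.03 and 0.06 on the female array and between −0.79 and −0.70 on the male array. The gap between the arrays was wider than the spread of the spots. The spots repeat 1 probe on 1 array, so they give no measure of variation between pools. On the male array alone *Ptgs2* would have been the third gene past the filter in the lower direction.

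*Ptges* encodes microsomal prostaglandin E synthase, the enzyme that makes PGE2 downstream of the cyclooxygenases. The brighter probe gave 5244 in the female control, 5333 in the female IWP-2 pool, 5674 in the male control and 5982 in the male IWP-2 pool. The treated pools were only just above the control of their own array, and the groups overlapped. Log2 ratios of 0.02 and 0.08 followed. A second *Ptges* probe, 3219 bases away, read 1142 and 1276 in the female pools and 1489 and 1364 in the male pools. It gave 0.16 in replicate 1 and −0.13 in replicate 2, with no common direction.

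*Ptgis* encodes prostacyclin synthase, which competes with *Ptges* for the same intermediate. Its signal was 392 in the female control, 306 in the female IWP-2 pool, 395 in the male control and 283 in the male IWP-2 pool. The controls were within a few units of each other and both treated pools lay below them. On the log2 scale the ratios were −0.36 and −0.48, a mean of −0.42 ± 0.09 (SD, n = 2). The second *Ptgis* probe was designed on another transcript and lay at the floor of 15 in all 4 channels, so it gave no ratio. When both probes were averaged the *Ptgis* mean was −0.21.

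Of the genes for removal, the transporter was a little lower and the breakdown enzyme higher under IWP-2. *Slco2a1* encodes the prostaglandin transporter that brings PGE2 back into cells. Its signal was 644 in the female control, 557 in the female IWP-2 pool, 757 in the male control and 613 in the male IWP-2 pool. Both treated pools were below both controls. Its log2 ratios were −0.21 and −0.30, with a mean of −0.26 ± 0.07 (SD, n = 2).

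*Hpgd* encodes the dehydrogenase that starts the inactivation of PGE2 inside the cell. It was read by a pair of probes 458 bases apart on chromosome 8, at chr8:58798941-58799000 and chr8:58799399-58799458 of mm9 on the + strand. The first 30 of the 60 bases of each probe are shown because both read the same gain from separate stretches of the transcript, and no letter is marked.
Hpgd probe 1: gaattcattttcaagattatgacatctctc
Hpgd probe 2: aagctcctttacaatggaaatatttagtaa
Probe 1 gave 1855 in the female control, 3021 in the female IWP-2 pool, 1321 in the male control and 2636 in the male IWP-2 pool. Both treated pools exceeded both controls. The log2 ratios were 0.70 and 1.00, which is 1.63-fold and 2.00-fold, with a mean of 0.85 ± 0.21 (SD, n = 2). Probe 2 went from 1098 to 1741 in the female pools and from 789 to 1532 in the male pools. Its log2 ratios of 0.66 and 0.96 repeated those of probe 1 to within a few hundredths on each array. *Hpgd* stood at place 18 from the top of the 14336 genes tested, ordered by mean ratio.

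The receptor genes split. *Ptger2* and *Ptger3* were lower under IWP-2 on both arrays, *Ptger4* was higher on both, and *Ptger1* hardly differed from control. *Ptger2* encodes EP2, which couples to Gs and raises cAMP. Its single probe lies at chr14:45622004-45622063 of mm9 on the + strand, and its first 30 bases are shown because it read the largest difference of the 10 genes.
Ptger2 probe 1: taaatgcagtcagaccaaatgaaattcatt
The *Ptger2* signal was 303 in the female control, 75.4 in the female IWP-2 pool, 239 in the male control and 82.5 in the male IWP-2 pool. The treated pools were far below both controls and above the floor of 15. The log2 ratios were −2.01 and −1.53, which is 4.02-fold and 2.90-fold lower, with a mean of −1.77 ± 0.33 (SD, n = 2). The spots of the probe lay between −2.10 and −1.91 on the female array and between −1.58 and −1.48 on the male array. *Ptger2* held place 8 from the bottom of the 14336 genes.

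*Ptger3* encodes EP3, which mainly couples to Gi and lowers cAMP, and which exists in several splice forms. Its probes lie at chr3:157307508-157307567 and chr3:157268044-157268103 of mm9, both on the + strand. They are 39464 bases apart on the chromosome, while their start positions within RefSeq transcripts in the array design differ by 734 bases. Whether both were designed on the same transcript was not checked. The first 30 bases of each probe are shown because they read different stretches of the gene.
Ptger3 probe 1: ctaaatgttcagctagagctgttaaaagga
Ptger3 probe 2: accagatcttggatccctgggtttatctgc
Probe 1 gave 249 in the female control, 109 in the female IWP-2 pool, 306 in the male control and 124 in the male IWP-2 pool. Both treated pools were below both controls. The log2 ratios were −1.19 and −1.30, which is 2.28-fold and 2.47-fold lower, with a mean of −1.25 ± 0.08 (SD, n = 2). Probe 2 went from 154 to 90.1 in the female pools and from 169 to 78.1 in the male pools. Its log2 ratios were −0.77 and −1.12, lower on both arrays like probe 1, but smaller in size on each. *Ptger3* held place 16 from the bottom.

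*Ptger1* encodes EP1, which raises intracellular calcium. Its signal was 550 in the female control, 509 in the female IWP-2 pool, 501 in the male control and 474 in the male IWP-2 pool. The groups overlapped and the log2 ratios of −0.11 and −0.08 were smaller than the SD over all genes on either array. *Ptger4* encodes EP4, which couples to Gs like EP2. Its signal was 364 in the female control, 484 in the female IWP-2 pool, 350 in the male control and 389 in the male IWP-2 pool. Both treated pools were above both controls, with log2 ratios of 0.41 and 0.15 and a mean of 0.28 ± 0.18 (SD, n = 2). The *Ptger4* ratio of 0.15 on the male array was smaller than the SD of 0.17 over all genes on that array. The Gs-coupled pair therefore lay on opposite sides of 0, with mean log2 ratios of −1.77 for *Ptger2* and 0.28 for *Ptger4*. In RNA from whole ureters, fewer cells of a type and less RNA per cell cannot be told apart.

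**Figure D2:**
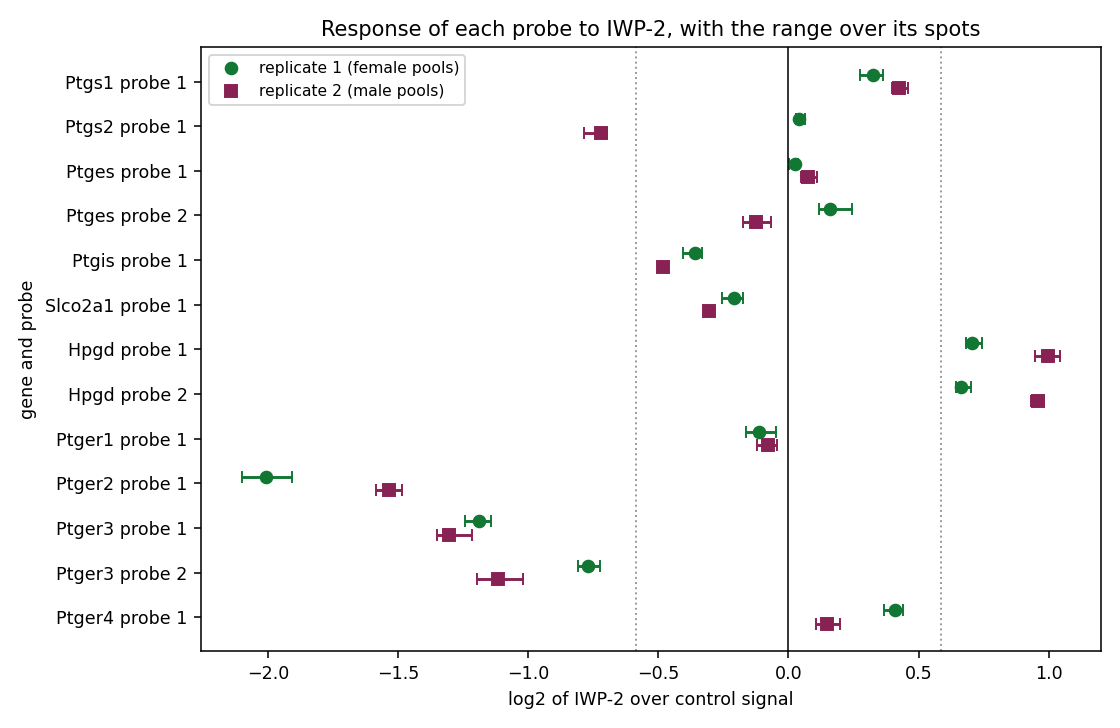
Log2 of the IWP-2 over the control signal (x axis) for each probe of the 10 genes (y axis), in replicate 1 (female pools, green circles) and replicate 2 (male pools, purple squares). Bars span the lowest and the highest spot of a probe on that array, dotted lines mark 1.5-fold, and *Ptgis* probe 2, at the floor in all channels, is left out. Both probes of *Hpgd* lie right of the upper line and the probes of *Ptger2* and *Ptger3* left of the lower one on both arrays, while *Ptgs2* crosses the lower line in replicate 2 only.

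Over the 10 genes, 9 had the same sign on both arrays and *Ptgs2* did not. Of all 14336 genes tested, 4172 were below 0 on both arrays and 3681 above 0 on both. Nothing is read from the count of 9, since the 10 genes were chosen with the ratios in view. The median log2 ratio of the 10 was −0.18, beside −0.01 over all genes tested. Among the other 10 genes past the filter in the higher direction, the ratios nearest to those of *Hpgd*, taking the larger of the differences on the 2 arrays, were those of *Strip2* (0.67 and 0.95), *Rasgef1a* (0.68 and 1.09) and *Rbp7* (0.59 and 0.98). Among the other 50 genes past it in the lower direction, *Ptger2* was nearest to *Axin2*, *Tbx4* (−2.21 and −1.73) and *Wif1* (−1.60 and −1.07). *Ptger2* and *Axin2* differed by at most 0.19 on either array.

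**Figure D3:**
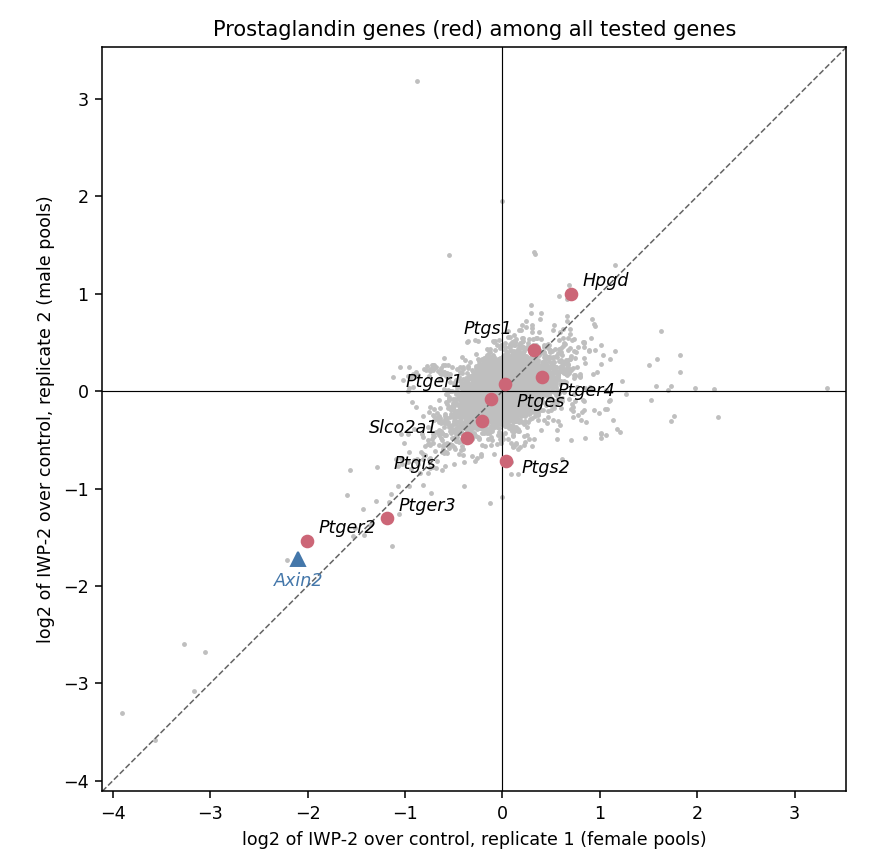
Log2 of IWP-2 over control in replicate 1 (x axis, female pools) against replicate 2 (y axis, male pools) for the 14336 genes tested (grey), the 10 prostaglandin genes (red) and *Axin2* (blue triangle); the dashed line marks equal ratios. *Ptger2* lies beside *Axin2* at −2.01 and −1.53, *Hpgd* at 0.70 and 1.00, and *Ptgs2* below the grey cloud at 0.04 and −0.72.

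RefSeq promoter sequences covered 8 of the 10 genes, all but *Ptger1* and *Ptgis*. The 250 bases before the start are shown for the genes past the filter, because *Ptger2* and *Ptger3* were lower together and *Hpgd* was higher. They come from RefSeq on GRCm38.p6, at chr14:44987861-44988110, chr3:157566626-157566875 and chr8:56294302-56294551 for *Ptger2*, *Ptger3* and *Hpgd*, all on the + strand. This build differs from that of the probes, and no position was carried over. Capitals mark a CCAAT box (CCAAT) in *Ptger2* and GC boxes (GGGCGG, either strand) in *Ptger3* and *Hpgd*.
Ptger2: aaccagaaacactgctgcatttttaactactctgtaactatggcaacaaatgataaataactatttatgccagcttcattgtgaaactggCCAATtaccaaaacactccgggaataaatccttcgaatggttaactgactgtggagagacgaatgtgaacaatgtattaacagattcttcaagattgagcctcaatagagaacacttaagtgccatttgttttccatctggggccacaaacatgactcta
Ptger3: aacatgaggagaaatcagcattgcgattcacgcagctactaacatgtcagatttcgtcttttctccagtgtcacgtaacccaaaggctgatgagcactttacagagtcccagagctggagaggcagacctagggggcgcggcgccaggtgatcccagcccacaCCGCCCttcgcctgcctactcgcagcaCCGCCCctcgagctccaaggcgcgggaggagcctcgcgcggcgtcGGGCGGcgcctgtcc
Hpgd: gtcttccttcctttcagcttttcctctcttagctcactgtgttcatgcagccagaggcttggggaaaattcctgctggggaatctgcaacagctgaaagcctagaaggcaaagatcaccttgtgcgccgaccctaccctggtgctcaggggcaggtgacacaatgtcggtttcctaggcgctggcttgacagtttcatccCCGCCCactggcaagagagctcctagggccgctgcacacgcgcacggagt
The *Ptger2* stretch had a GC content of 38.0%, against 62.0% in *Ptger3* and 56.8% in *Hpgd*, with a median of 52.4% over the 32851 promoters of the table. The letters CTTTGAT and CTTTGTT, which the WNT effectors TCF and LEF can bind, were searched on both strands and occurred in none of the 8 genes, against 3.21% and 5.03% of all promoters. The cAMP response element TGACGTCA also occurred in none of the 8, against 1.55%. CCAAT was found in *Ptger2* and *Ptger4*, against 33.8% of all promoters. GGGCGG was found in 6 of the 8 (*Hpgd*, *Ptger3*, *Ptger4*, *Ptges*, *Ptgs2* and *Slco2a1*), against 32.7%. The TATA box TATAAA was found in *Slco2a1* alone, against 12.4%. A match describes the letters only, and a missing match says nothing of other windows.

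The rest of the prostanoid pathway was read from a list of 32 further genes, of which 19 had enough signal to be tested. With limma, 1 was higher and 0 were lower at an adjusted p of 0.05, against 0.363% and 0.886% of all 14336 genes, and 5 of the 19 had an unadjusted p under 0.05, as had 1851 of all 14336 genes (12.9%). The 1 was *Ptgfr*, the receptor for prostaglandin F2α, which makes smooth muscle contract. Its signal was 159 in the female control, 261 in the female IWP-2 pool, 236 in the male control and 341 in the male IWP-2 pool. Both treated pools were above both controls. *Ptgfr* had log2 ratios of 0.72 and 0.53, with a mean of 0.62 (limma standard error 0.076, adjusted p = 0.0194). This call was lost with all probes of a gene averaged and in the value table of the series. It was also lost without a filter on dim probes (29924 genes) and with probes well above background (19704 genes). Over all 10 alternatives the ratio stayed between 0.60 and 0.68.

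The next in size were *Akr1b3*, an aldo-keto reductase with prostaglandin F synthase activity, with a mean log2 ratio of 0.35 (limma adjusted p = 0.119), and *Ptgr2*, a reductase of oxidised prostaglandins that acts after *Hpgd*, with 0.25 (adjusted p = 0.237). Neither passed the test. The remaining 16 ran from −0.08 (*Ptges3*) to 0.24 (*Ptgr1* and *Abcc4*), and none passed. Near 0 were the phospholipase *Pla2g4a*, which frees arachidonic acid, at 0.03, the prostacyclin receptor *Ptgir* at 0.01 and the thromboxane receptor *Tbxa2r* at 0.05. Of the 13 not tested, the prostaglandin D receptors *Ptgdr* and *Ptgdr2* and the synthase *Ptgds* were at the floor in both controls. Over the 19 the median log2 ratio was 0.03, beside −0.01 over all genes.

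Arachidonic acid also feeds the lipoxygenases. Of 16 genes for lipoxygenases, leukotrienes and epoxide hydrolases, 5 were tested. With limma 1 was lower and 0 were higher, against 0.886% and 0.363% of all 14336 genes. An unadjusted p under 0.05 was found for 3 of the 5, beside the 12.9% of all genes. The lower gene was *Alox12*, which encodes a lipoxygenase acting on arachidonic acid. Its signal was 996 in the female control, 730 in the female IWP-2 pool, 1097 in the male control and 815 in the male IWP-2 pool. Both treated pools were below both controls. *Alox12* had log2 ratios of −0.45 and −0.43, with a mean of −0.44 (limma standard error 0.067, adjusted p = 0.0399), and a dimmer probe gave −0.32. The call was lost under 6 of 10 alternatives, while the ratio stayed between −0.44 and −0.38. The epoxide hydrolases *Ephx2* (0.32, limma adjusted p = 0.102) and *Ephx1* (−0.22, adjusted p = 0.297) did not pass.

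Genes that respond to PGE2 or cAMP in many cells were read as a list of 20, of which 17 were tested. With limma 1 was lower and 0 were higher, against 0.886% and 0.363% of all 14336 genes. An unadjusted p under 0.05 was found for 4 of the 17, beside the 12.9% of all genes. The lower gene was *Tnfaip6*, a secreted hyaluronan-binding protein. Its signal was 916 in the female control, 540 in the female IWP-2 pool, 1233 in the male control and 689 in the male IWP-2 pool. Both treated pools lay below both controls. The log2 ratios were −0.76 and −0.84, a mean of −0.80 (limma standard error 0.068, adjusted p = 0.00703), and the other probes gave −0.71 and −0.83. The call was lost in the value table, without a filter on dim probes and with probes well above background. Over all 10 alternatives the ratio stayed between −0.81 and −0.76. The immediate early gene *Fos* had 0.36 (adjusted p = 0.103) and the cytokine *Il6* −0.27 (adjusted p = 0.439), so neither passed. *Il6* had log2 ratios of −0.01 in the female and −0.53 in the male pools. The cAMP-induced genes *Nr4a1* (0.04), *Crem* (0.03) and *Per1* (−0.03) had means near 0. Others of the list, such as *Pde4b* (0.26) and *Nr4a2* (−0.16), lay further from 0 on either side, and none of these passed. The median over the 17 was 0.03.

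**Figure D4:**
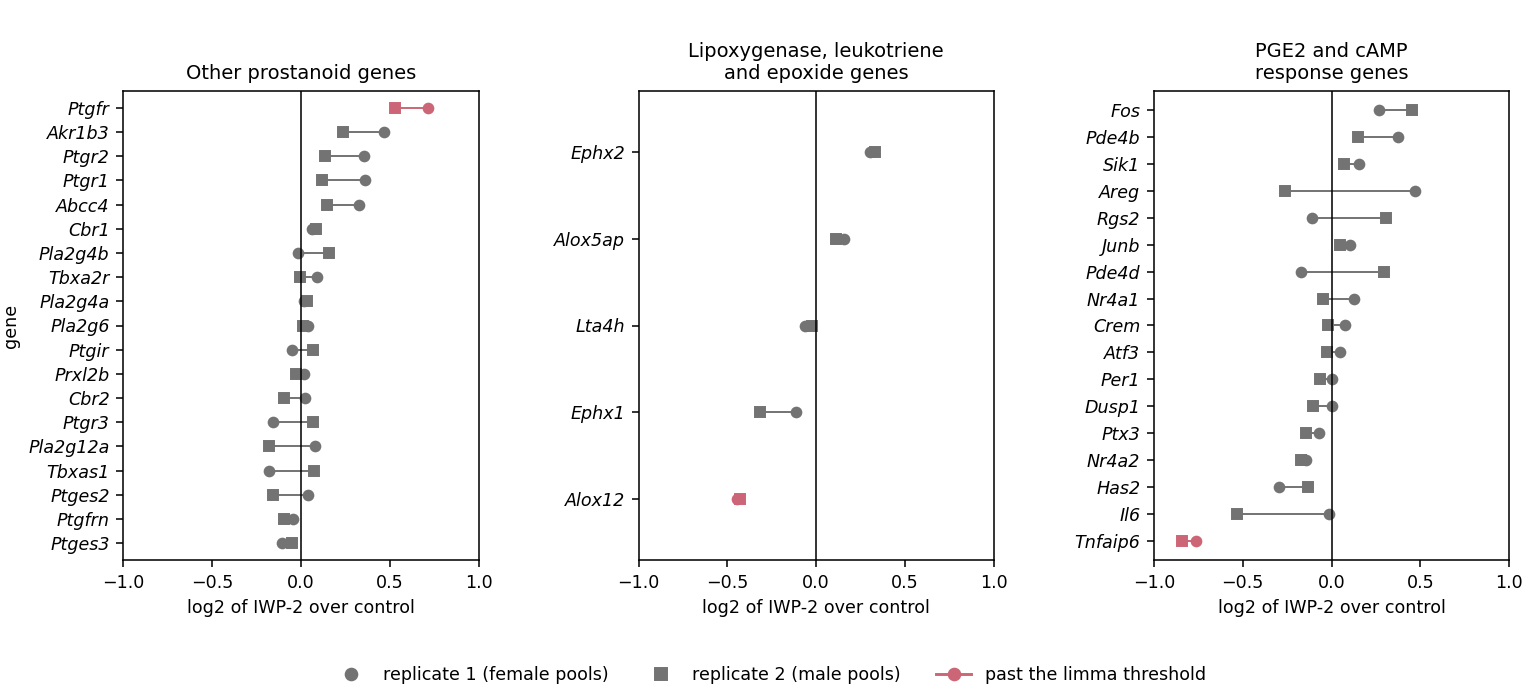
Log2 of IWP-2 over control (x axis) for the tested genes (y axis) of the other prostanoid list (19), the lipoxygenase, leukotriene and epoxide list (5) and the PGE2 and cAMP response list (17). Circles are replicate 1 (female pools), squares replicate 2 (male pools), a line joins the arrays of a gene, and red marks a limma adjusted p under 0.05, which *Ptgfr*, *Alox12* and *Tnfaip6* reached.

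Over all 14336 genes limma called 127 lower and 52 higher. The split was 108 and 85 with median centring, 156 and 107 with normexp, and 698 and 623 in the value table.

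Markers of the ureter and of other cells were read beside these values. All 12 urothelium markers were tested and 9 were above 0 on both arrays, as were 3681 of all 14336 genes. The 12 markers had a median log2 ratio of 0.44 in replicate 1 and 0.14 in replicate 2. Their summed signal went from 137988 to 176670 in the female pools and from 168633 to 175540 in the male pools. The part of this shift in the higher *Hpgd* and *Ptgs1* was not tested. The 8 smooth muscle markers had medians of 0.01 and 0.23 and summed signals of 86754 and 86226 in the female and 74687 and 85980 in the male pools. The 8 fibroblast markers had medians of −0.17 and 0.02, and their sum went from 162671 to 141463 and from 144509 to 147659. Of 5 lamina propria markers, *Aldh1a2*, a retinoic acid synthesis gene, was called lower (mean −0.63, limma adjusted p = 0.0280), and the median of the list was −0.10 and 0.18. The sum of that list went from 21254 to 18514 in the female pools and from 17637 to 18484 in the male pools. Its genes went different ways. *Aldh1a2* (−0.76 and −0.50) and *Thy1* (−0.60 and −0.37) were below 0 on both arrays. *Foxf1* (0.20 and 0.54) and *Ptch1* (0.03 and 0.49) were above 0 on both, and *Bmp4* (−0.10 and 0.18) changed sign between them. The part of the mesenchymal markers in the lower *Ptger2* and *Ptger3* was not tested. Macrophage markers (7 of 8 tested) had medians of 0.13 and 0.07, mast cell markers (4 of 7) 0.27 and 0.20, endothelial markers (7 of 7) −0.13 and 0.01, and nerve markers (4 of 5) −0.30 and 0.05. The mast cell genes *Fcer1a* and *Ms4a2* were at the floor in both controls, and none of the 5 kidney markers was bright enough to be tested. Apart from *Aldh1a2*, limma called 0 genes in these lists, with an unadjusted p under 0.05 for 8 of 12 urothelium, 2 of 8 smooth muscle, 0 of 8 fibroblast, 3 of 5 lamina propria (*Aldh1a2* included), 2 of 7 macrophage, 2 of 4 mast cell, 2 of 7 endothelial and 3 of 4 nerve markers tested, beside the 12.9% of all genes. All 7 tested WNT feedback genes were called lower by limma. Over all 14336 genes it called 0.886% lower and 0.363% higher.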

How the data were processed

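Labelled cRNA from 4 pools was hybridised on 2 Agilent mouse arrays. The deposited scanner files hold processed intensities, which the authors' Feature Extraction run (12.2.0.7 in the file header, 10.7.3.1 in the submitters' processing notes) had corrected for background and normalized between dyes. Probe positions in the files are on mm9. The deposited log10 ratio of red over green was used only to check direction, and equalled that of the processed signals within 0.001 for 82.8% and 83.1% of spots. The deposited ratio was exactly 0 for 17.2% and 16.9% of spots. The deposited value table holds a score per probe, a signed fold change whose scale and direction were found by comparison with the arrays (column medians 1 and 1), and served as an alternative. No column of the authors' own tests was used, and 0 other columns of sample values were left aside.

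Control spots and flagged spots were left out. Signals were normalized by loess within each array (limma 3.58.1, R 4.3.3), averaged per probe, floored at 15 and expressed as log2, and a gene was represented by its brightest probe over the 4 channels. Genes with a mean signal above 100 in either condition were tested with lmFit and eBayes, adjusted by Benjamini-Hochberg over all of them at 0.05. With 2 arrays there is 1 residual degree of freedom, and the number of arrays limits the precision. Each ratio is taken within an array, which pairs the pools of 1 sex. The steps were tested on simulated data. Promoter and motif searches ran in Python 3.11.15.

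The genes and lists were chosen with earlier results of these data known. The genes named are the 10 with all probes, of each further list those called (topped up to 3 by size), the 3 nearest to *Hpgd* and to *Ptger2*, and *Axin2*. The other genes of the lists were named after their values were seen. Alternatives covered normalization, background, flags, floor, probe summary, filters, fold and leaving out a replicate.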

Additional observations from a re-analysis of the deposited data

Results flagged for a closer look

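A pair of probes gave log2 ratios of opposite sign in the female and the male pools, with every spot on its array's side of 0. Spots repeat 1 probe on 1 array, so they say nothing of variation between pools. Opposite signs were common, since of all 14336 genes tested only 4172 were below 0 and 3681 above 0 on both arrays. For *Ptgs2* the female ratio exceeded the male one by 0.76 (0.04 against −0.72). For *Ptges* probe 2 it did so by 0.29 (0.16 against −0.13), while the brighter *Ptges* probe was above 0 on both arrays. The arrays lay further apart for *Ptger2* (0.47) and *Ptger3* probe 2 (0.35), which kept their sign. There is 1 array per sex, so the difference between the sexes was not tested, and sex and dye orientation cannot be told apart.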

How the results depend on the processing

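The mean log2 ratios of the 10 prostaglandin genes kept their sign under all 8 alternatives of processing. Not every alternative could move them. Normalizing between arrays and a floor of 1 left the means all but unchanged, and averaging probes could not change genes with 1 probe. *Ptger2* ranged from −1.80 to −1.60, *Ptger3* from −1.29 to −1.10 and *Hpgd* from 0.83 to 0.89. The same *Ptger2*, *Ptger3* and *Hpgd* passed the filter under each of these alternatives and under each control threshold, except that with a 2-fold threshold 0 were higher. Leaving out a replicate gave 2 to 3 lower (*Ptgs2* joined without replicate 1) and 1 higher. *Ptgs2* had 0.04 without replicate 2 and −0.72 without replicate 1. The 1 lower lipoxygenase gene became 0 without further normalization, with median centring, with all probes averaged, in the value table, without a filter on dim probes and with the filter on probes well above background. The 1 higher prostanoid gene became 0 with all probes averaged, without a filter on dim probes and with probes well above background. The 1 lower PGE2 and cAMP response gene became 0 without a filter on dim probes and with probes well above background. In the value table the lipoxygenase list had 1 higher, the PGE2 and cAMP list 2 lower (*Nr4a2* and *Ptx3*, with *Tnfaip6* lost) and 1 higher, and *Cbr1* replaced *Ptgfr*. The adjusted p of *Ptgfr* ranged from 0.00618 to 0.727, of *Alox12* from 0.0211 to 0.469 and of *Tnfaip6* from 0.00110 to 0.495. Over all genes limma called 85 lower and 32 higher without further normalization and 50 and 17 with probes averaged. It called 0 of 29924 genes without a filter on dim probes, and 0 of 19704 with probes well above background. Both settings tested more genes than the 14336 of the main one, and 2028 and 2080 genes had an unadjusted p under 0.05. The cause was not tested. Without a replicate no test can be run, since 1 array leaves no residual degree of freedom.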
